A study of Mus musculus with 16 samples.

Results

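The 36 genes described here build cholesterol, sense it, move it between cells or make the fatty acids that accompany it. They were chosen by symbol from the pathway, with earlier results of these data known. Each symbol was found exactly 1 time in every library, and together they are 36 of the 24060 genes listed. They fall into 6 role groups: 7 genes of the thiolase and mevalonate arm, 11 of the squalene and sterol arm, 5 that control the SREBP transcription factors, 5 that handle sterols inside the cell, 5 of lipoproteins, export and uptake, and 3 of fatty acid synthesis.

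RNA was sequenced from the somatosensory cortex of mice in which the Aldh1l1 promoter drives a tamoxifen-inducible Cre (Aldh1l1CreERT2) and Cre in turn switches on an HA-tagged ribosomal protein (RiboTag), so that ribosomes of astrocytes can be pulled down with the RNA they carry. All mice, controls included, were C57BL/6J, carried both alleles, received tamoxifen at 2 months and were 3 months old. Stressed mice swam in a bucket of water for 20 min and rested for 90 min, whereas naive mice stayed in the home cage. The pulled-down RNA (IP) and the cleared lysate (INPUT) were each sequenced as 4 naive and 4 stress libraries, and the methods of the study name 8 mice of both sexes. The labels do not say which IP and INPUT library came from the same mouse, so libraries were treated as independent and p-values measure the spread between these libraries. Values are listed in the order of replicates 2, 8, 11 and 13 for naive IP, 4, 5, 6 and 15 for stress IP, 3, 7, 14 and 16 for naive INPUT, and 1, 9, 10 and 12 for stress INPUT.

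Neurons in the adult brain make little cholesterol and depend in part on astrocytes, which synthesise it from acetyl-CoA through mevalonate, squalene and lanosterol and pass it on in lipoprotein particles built on apolipoprotein E. Synthesis is governed by feedback. When membrane sterol is low, SCAP escorts the SREBP precursors from the endoplasmic reticulum to the Golgi, where they are cut into active transcription factors, and when sterol is high, INSIG proteins hold SCAP back.

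Levels are in CPM, the reads of a gene per 1000000 reads counted on genes, and rest on 16392876 to 25814364 such reads per library. The lowest count of any of the 36 genes in any library was 56 reads, for Idi1 in naive INPUT. The IP was astrocyte RNA as far as markers show: all 8 astrocyte markers were higher in IP than in INPUT, by 2.87 to 4.504 on the log2 scale in naive mice, and all 6 neuronal markers were lower, by -4.74 to -3.88. The summed neuronal markers nevertheless stood at 424 to 551 CPM in naive IP and 334 to 492 CPM in stress IP, against 9754 to 10194 CPM in naive INPUT. Of the other marker lists, oligodendrocyte genes summed to 276 to 323 CPM in naive IP and 1605 to 1769 CPM in naive INPUT, with Cnp the only one of 6 higher in IP. Oligodendrocyte precursor genes summed to 15.1 to 25.9 and 85.5 to 93.3 CPM, and microglial genes to 17.1 to 22.4 and 188 to 206 CPM. Endothelial and mural genes summed to 142 to 167 and 90.6 to 119 CPM, most of it Pdgfrb in IP. Choroid plexus genes summed to 2.56 to 122 CPM in naive IP, the top value in replicate 2, and to 3.12 to 15.9 CPM in naive INPUT. Among libraries labelled naive, 1 of IP and 1 of INPUT stood apart in glucocorticoid-induced genes. Fkbp5, which encodes a chaperone of the glucocorticoid receptor, reached 39.8 CPM in naive IP replicate 11, the remaining naive IP libraries holding 5.31 to 8.56 CPM, against 20.1 to 71.8 CPM in stress IP. In INPUT it reached 49.3 CPM in naive replicate 14, the remaining naive libraries holding 22.5 to 27.1 CPM, against 43.7 to 62.7 CPM in stress INPUT.

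The first comparison asked which steps of the pathway were carried by astrocyte ribosomes, as the ratio of IP to INPUT. In naive mice 31 of the 36 genes were higher in IP, where 23.7% of all 13339 genes tested were, and 4 were lower, where 64.0% of all genes were (limma on log2(CPM + 0.1), Benjamini-Hochberg adjusted p under 0.05). In stressed mice the counts were again 31 higher and 4 lower, against 23.6% and 62.5% of 13333 genes. Because the 36 genes were chosen with earlier results of these data known, these counts describe them and do not test the pathway. Of 39 other pathway genes tested in naive mice, 14 were higher and 19 lower. The median log2 ratio of the 36 genes was 1.93 in naive and 1.95 in stressed mice, and that of all genes tested was -0.64 and -0.63. Because CPM are shares of a library, the ratio says which genes take a larger share of ribosome-bound astrocyte RNA than of tissue RNA. In bulk RNA, more astrocytes and more RNA per astrocyte cannot be told apart. When libraries were scaled by their median ratio instead, all genes in naive mice split into 5599 higher and 5635 lower in place of 3158 and 8540, and the 36 genes into 32 higher and 3 lower. In stressed mice the same scaling gave 5461 higher and 5505 lower in place of 3143 and 8332, and 32 and 2 of the 36 genes.

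**Figure D1:**
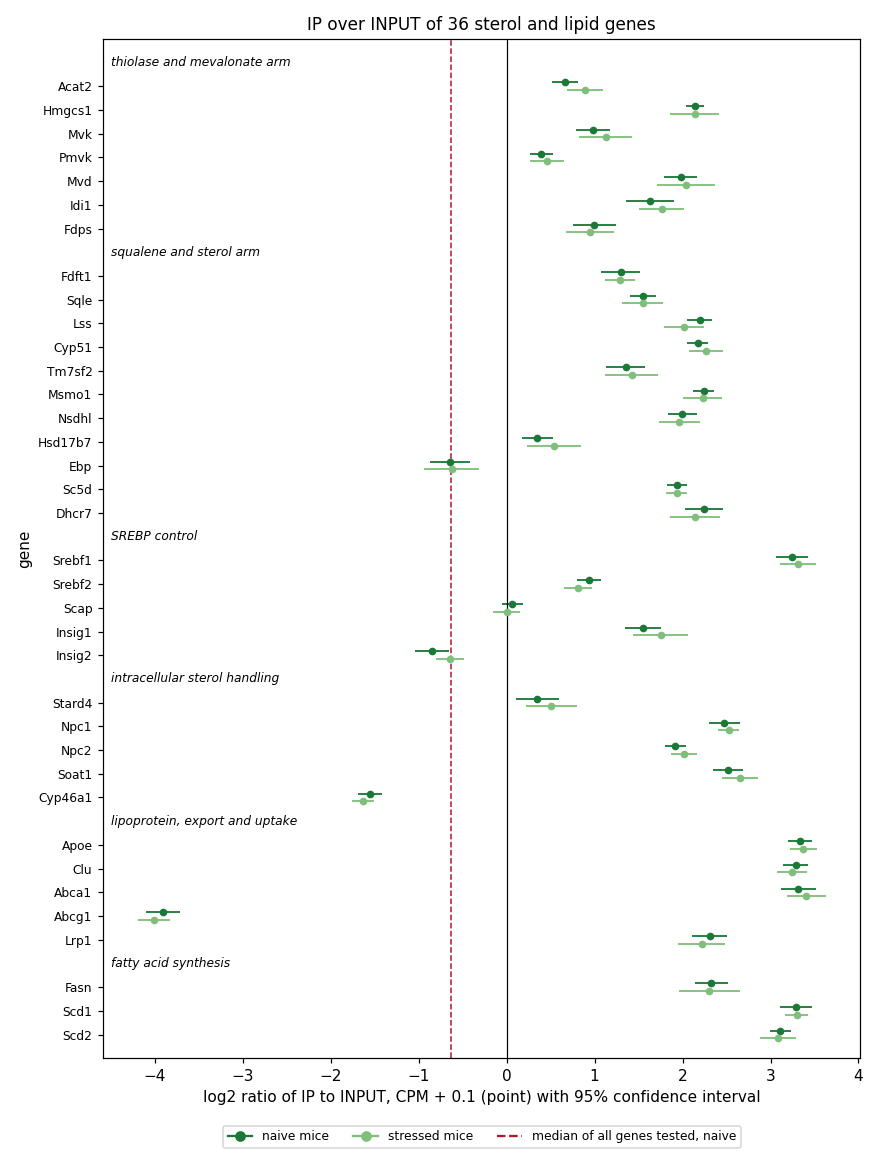
Log2 ratio of IP to INPUT for the 36 genes, grouped by role, in naive (dark green) and stressed mice (light green); points are limma estimates from 4 IP and 4 INPUT libraries and bars are 95% confidence intervals. The dashed line is the median of all genes tested in naive mice, -0.64, and only Ebp, Insig2, Cyp46a1 and Abcg1 lie near or left of it.

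The thiolase and mevalonate arm turns acetyl-CoA into the isoprenoid farnesyl pyrophosphate. All 7 of its genes were higher in IP, in both naive and stressed mice, with a median log2 ratio of 1.00 in naive mice. Hmgcs1 (chr13:119690379-119708260 on GRCm38), the cytosolic synthase that makes HMG-CoA, had the largest ratio of the arm. It was at 1129, 1177, 1131 and 1167 CPM in naive IP and at 252, 278, 258 and 258 CPM in naive INPUT. In stressed mice it was at 998, 1258, 1165 and 1505 CPM in IP and at 250, 343, 244 and 279 CPM in INPUT. IP and INPUT libraries were thus far apart and never overlapped, and the ratio was 4.41-fold in naive mice (log2 2.14, SE 0.05, adjusted p = 8.4e-14). Mvd, the decarboxylase that makes isopentenyl pyrophosphate, followed at 3.94-fold (log2 1.98) and Idi1, the isomerase of that product, at 3.09-fold (log2 1.63). Fdps, which makes farnesyl pyrophosphate, and Mvk, which phosphorylates mevalonate, were both near a doubling in IP, with log2 ratios of 1.00 and 0.98. Acat2, the cytosolic thiolase, had a log2 ratio of 0.67.

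Pmvk (chr3:89454541-89469013), the kinase after Mvk, had the smallest ratio of the arm. It was at 47.7, 47.3, 43.6 and 45.6 CPM in naive IP and at 35.3, 35.2, 33.4 and 36.2 CPM in naive INPUT. With stress it was at 44.1, 51.7, 44.8 and 55.7 CPM in IP and at 34.8, 36.4, 32.6 and 38.4 CPM in INPUT. The groups did not overlap, but the difference was small at 1.31-fold (log2 0.39, SE 0.06, adjusted p = 3.7e-05). Pmvk and Mvd act one after the other in the same route, with log2 ratios of 0.39 and 1.98 and intervals of 0.26 to 0.53 and 1.79 to 2.16 that did not overlap.

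The squalene and sterol arm joins farnesyl units into squalene, closes the sterol rings and trims lanosterol to cholesterol. Of its 11 genes, 10 were higher in IP and 1, Ebp, was lower in both naive and stressed mice. The median log2 ratio was 1.94 in naive and 1.93 in stressed mice. Dhcr7, the reductase at the end of one branch, had the largest ratio in naive mice. It was at 60.9, 78.1, 70.9 and 76.7 CPM in naive IP and at 13.4, 17.4, 15.5 and 14.0 CPM in naive INPUT. Stressed mice had it at 60.9, 67.9, 75.9 and 82.2 CPM in IP and at 12.6, 19.5, 16.4 and 16.8 CPM in INPUT. The naive ratio was 4.73-fold (log2 2.24, SE 0.10, adjusted p = 6.5e-11). Msmo1, a C4-demethylating oxidase, lay beside it with the same log2 ratio of 2.24 (SE 0.06), and so did Lss, lanosterol synthase, at 2.19, and Cyp51, lanosterol demethylase, at 2.17. Nsdhl, which works with Msmo1 in C4 demethylation, was at 2.00 and Sc5d, the lathosterol oxidase, at 1.94.

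Other genes of this arm had lower ratios, with 1.55 for Sqle, squalene epoxidase, 1.35 for Tm7sf2, a C14 sterol reductase, and a 2.45-fold ratio for Fdft1, squalene synthase. Hsd17b7, a 3-ketosteroid reductase of the C4 demethylation complex, had only 0.35. Fdft1 shares 18.3% of its exon bases with Ctsb on the opposite strand and Tm7sf2 shares 12.1% with Vps51 on its own strand. Ctsb was at 573 CPM in naive IP and 556 CPM in naive INPUT. Since the sources do not say whether counting used strand, reads of Fdft1 and Ctsb may not be fully separated. Vps51 was at 21.1 CPM in naive IP and 37.7 CPM in naive INPUT, beside 22.2 and 8.68 CPM for Tm7sf2. Strand cannot separate reads of these 2 genes in the shared bases. Fdps shares 26.7% of its exon bases with the annotated gene Gm43738, which is not among the genes listed, and Hmgcs1 and Scap share 12.1% and 13.2% with such genes on the opposite strand.

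Ebp (chrX:8185329-8193512), the sterol isomerase between the demethylation steps and Sc5d, went the other way. It was at 9.59, 9.32, 7.79 and 8.95 CPM in naive IP and at 13.1, 13.1, 16.0 and 14.0 CPM in naive INPUT. After swimming it was at 7.72, 7.50, 11.7 and 9.64 CPM in IP and at 13.5, 14.7, 14.7 and 12.9 CPM in INPUT. All IP values lay below all INPUT values, and the naive log2 ratio was -0.65 (SE 0.11, adjusted p = 5.8e-05). That is close to the median of all genes, so with median ratio scaling the log2 ratio of Ebp was -0.01 in naive mice and 0.00, with the sign turned, in stressed mice (adjusted p = 0.91 and 1.0).

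Levels of different genes were compared per kilobase of merged exon, and again per kilobase of the longest transcript, because the choice moved some genes. In naive IP the enzymes of both arms ran from 250.5 ± 5.39 CPM per kb for Hmgcs1 (SD, n = 4) down to 3.34 ± 0.33 CPM per kb for Idi1 with merged exons, and from 332 to 3.86 CPM per kb, with the same genes at the ends, with the longest transcript. Hmgcs1 stood clear of the other enzymes with either length. The next in order depended on it, since Cyp51 was at 75.6 ± 3.83 and Msmo1 at 58.9 ± 3.63 CPM per kb of merged exon, but Msmo1 was at 122 and Cyp51 at 84.9 CPM per kb of longest transcript. Fdft1 at 49.9 ± 1.63 and Sc5d at 49.9 ± 2.10 CPM per kb of merged exon did not differ beyond their spread, and were at 57.0 and 50.7 CPM per kb of longest transcript. In naive INPUT, Pmvk stood above Cyp51 with either length, at 20.4 ± 0.67 against 16.7 ± 0.74 CPM per kb of merged exon and 29.3 against 18.8 CPM per kb of longest transcript, the reverse of their order in naive IP.

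Among the genes of SREBP control, 3 of 5 were higher in IP, 1 was lower and Scap did not pass the threshold. Srebf1 (chr11:60199089-60222581), which encodes SREBP-1, the form tied mostly to fatty acid genes, had the largest ratio. It was at 402, 391, 493 and 419 CPM in naive IP and at 42.6, 48.2, 48.97 and 39.97 CPM in naive INPUT. In stressed mice it was at 348.5, 437, 416 and 506 CPM in IP and at 41.4, 42.8, 41.0 and 44.6 CPM in INPUT. In naive mice the ratio was 9.46-fold (log2 3.24, SE 0.08, adjusted p = 2.5e-13). Srebf2, which encodes the form tied mostly to cholesterol genes, had a ratio of 1.92-fold (log2 0.94, SE 0.06). Insig1, the INSIG that is itself a target of SREBP, was 2.92-fold higher in IP (log2 1.55).

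Insig2 (chr1:121304353-121332589), the second INSIG, was lower in IP. It was at 18.45, 18, 14.45 and 15.84 CPM in naive IP and at 29.7, 29.3, 29.0 and 32.6 CPM in naive INPUT. With stress it was at 17.6, 18.7, 18.2 and 18.2 CPM in IP and at 27.6, 29.5, 29.4 and 27.8 CPM in INPUT. The log2 ratio was -0.85 in naive mice (SE 0.09, adjusted p = 8.2e-07) and -0.65 in stressed mice, where median ratio scaling left -0.02 (adjusted p = 0.82). Scap was at 119 to 122 CPM in naive IP and at 108 to 124 CPM in naive INPUT, and its log2 ratio of 0.06 had a 95% confidence interval of -0.06 to 0.19. With median ratio scaling Scap was higher in IP by 0.71 in naive and 0.63 in stressed mice.

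Pairs of related genes were compared within each library, where scaling between libraries plays no part. The Srebf1 to Srebf2 ratio of CPM was 1.45 to 1.73 in naive IP and 0.282 to 0.335 in naive INPUT. In stressed mice it was 1.58 to 1.84 in IP and 0.282 to 0.334 in INPUT. Srebf1 therefore outnumbered Srebf2 in every IP library and Srebf2 outnumbered Srebf1 in every INPUT library, also per length, where the ratio was 1.85 to 2.35 in IP and 0.359 to 0.428 in INPUT over both conditions. The Insig1 to Insig2 ratio was 10.8 to 15.9 in naive IP and 2.26 to 2.98 in naive INPUT. In stressed mice it was 12.3 to 19.1 in IP and 2.27 to 3.31 in INPUT. These pairs were chosen after the values were seen, so the ratios are given with no test, and for Insig1 and Insig2, which moved in opposite directions without overlap, the separation of the ratio follows from the single genes.

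**Figure D2:**
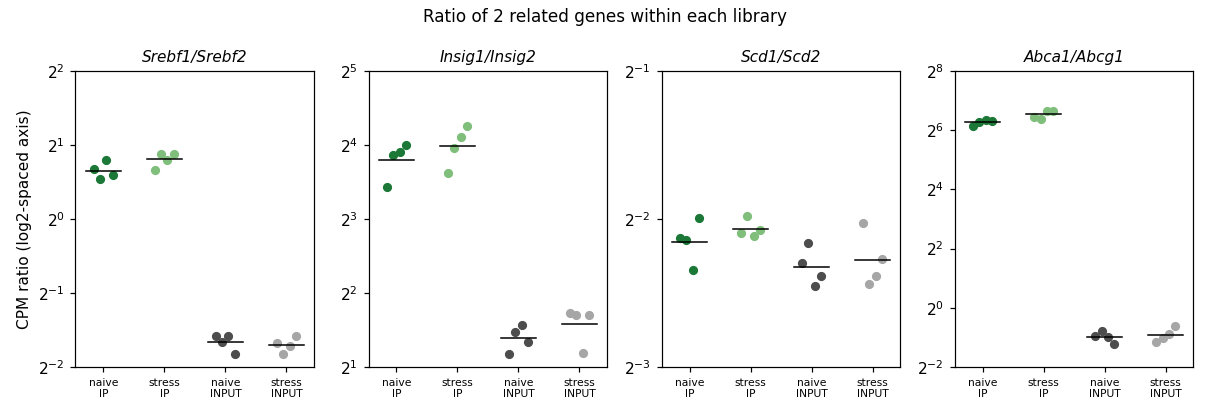
Ratio of the CPM of 2 related genes within each library, on log2-spaced axes, by condition and fraction; each point is 1 library and lines are geometric means of 4. Abca1/Abcg1, Srebf1/Srebf2 and Insig1/Insig2 separate IP from INPUT without overlap, and Scd1/Scd2 does not.

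The proteins of intracellular sterol handling take cholesterol out of lysosomes, carry it between membranes, store it as ester or oxidise it. Of the 5 genes, 4 were higher in IP and Cyp46a1 was lower. Soat1 (chr1:156424525-156474331), which esterifies cholesterol for storage, had the largest ratio. It was at 191, 234, 210 and 226 CPM in naive IP and at 40.04, 37.97, 39.4 and 32.9 CPM in naive INPUT. Stressed mice had it at 228, 232, 232 and 237 CPM in IP and at 30.1, 37.2, 36.9 and 43.9 CPM in INPUT. This was a naive ratio of 5.72-fold (log2 2.52, SE 0.08, adjusted p = 1.6e-12). Npc1 and Npc2, which together release cholesterol from lysosomes, were 5.56-fold and 3.78-fold higher in IP. Stard4, a cytosolic sterol carrier, had a log2 ratio of 0.35 (SE 0.11, adjusted p = 0.012), and its naive IP and INPUT libraries overlapped.

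Cyp46a1 (chr12:108334381-108362234), the 24-hydroxylase through which the brain disposes of cholesterol and which is known mainly from neurons, was at 76.9, 65.8, 71.5 and 70.2 CPM in naive IP. In naive INPUT it was at 209, 201, 228 and 200 CPM. After swimming it was at 70.1, 70.6, 67.6 and 75.8 CPM in IP and at 228, 225, 213 and 219 CPM in INPUT. All IP values lay below all INPUT values, at a log2 ratio of -1.56 (SE 0.06, adjusted p = 2.4e-11). Its decrease was smaller than that of any of the 6 neuronal markers, of which Rbfox3 had the ratio nearest to 0, -3.88. Per length, Cyp46a1 in naive IP was at 21.6 ± 1.39, Npc2 at 21.7 ± 1.04 and Soat1 at 22.0 ± 1.93 CPM per kb of merged exon, but at 33.6, 35.8 and 25.7 CPM per kb of longest transcript.

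Lipoproteins and their transporters held the extremes in both directions, with 4 of 5 genes higher in IP and Abcg1 lower. Apoe (chr7:19696109-19699188), the main apolipoprotein of the brain, had the largest estimate of the 36 genes in naive mice, with Abca1 within its error, and in stressed mice Abca1 was first at 3.41 (SE 0.10) and Apoe second at 3.37 (SE 0.07) on the log2 scale. Apoe was at 13230, 13145, 13740 and 12791 CPM in naive IP and at 1348, 1191, 1370 and 1348 CPM in naive INPUT. In stressed mice it was at 12785, 12724, 12349 and 13355 CPM in IP and at 1289, 1272, 1181 and 1201 CPM in INPUT. The naive ratio was 10.1-fold (log2 3.33, SE 0.06, adjusted p = 2.1e-14). Clu, the apolipoprotein also called clusterin, was 9.75-fold higher, and Abca1, the transporter that loads lipid on apolipoproteins, was 9.97-fold higher. Lrp1, an endocytic receptor for particles that carry apolipoprotein E, was 4.95-fold higher. Apoe also had the highest level per length, 6186 ± 183 CPM per kb in naive IP, followed by Clu at 2086 ± 156 and Scd2 at 1959 ± 64.7 CPM per kb of merged exon. Those spreads overlapped, but per kb of longest transcript Clu was at 3962 and Scd2 at 1962 CPM, with Apoe at 9394 CPM.

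Abcg1 (chr17:31057675-31117988), the transporter that passes cholesterol to particles already loaded with lipid, was the reverse of Abca1. It was at 7.88, 6.27, 8.19 and 6.70 CPM in naive IP and at 107.5, 103, 116 and 113 CPM in naive INPUT. With stress it was at 6.65, 6.66, 5.57 and 6.83 CPM in IP and at 109, 102, 106 and 104 CPM in INPUT. In naive mice the ratio was 15.0-fold lower in IP (log2 -3.91, SE 0.09, adjusted p = 1.0e-13), and 2.15% of all genes tested lay below it. That is within the range of the neuronal markers, and also within those of the oligodendrocyte and microglial markers. The Abca1 to Abcg1 ratio was 69.6 to 80.4 in naive IP and 0.426 to 0.580 in naive INPUT, and 83.3 to 101.0 and 0.446 to 0.656 in stressed mice. This separation follows from the opposite directions of the single genes, and is given with no test. Per length, Abcg1 was at 15.1 ± 0.78 CPM per kb in naive INPUT, above Abca1 at 5.36 ± 0.50, and at 0.995 ± 0.126 CPM per kb in naive IP, below all other members.

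Fatty acid synthesis was higher in IP at all 3 genes. Scd1 (chr19:44394455-44407879), a desaturase that makes oleate, was at 2331, 2416, 2168 and 2740 CPM in naive IP and at 246, 287, 226 and 233 CPM in naive INPUT. Stressed mice had it at 2355, 2486, 2350 and 2545 CPM in IP and at 249, 259, 232 and 252 CPM in INPUT. This was a naive ratio of 9.75-fold (log2 3.28, SE 0.08, adjusted p = 2.4e-13). Scd2, the desaturase best known from brain, was at 8.66-fold and had the higher level, 10704 ± 353.5 CPM in naive IP. The Scd1 to Scd2 ratio was 0.197 to 0.251 in naive IP and 0.183 to 0.223 in naive INPUT, overlapping between fractions. In stressed mice it was 0.231 to 0.254 in IP and 0.185 to 0.245 in INPUT, again overlapping.

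Fasn (chr11:120805846-120824547), fatty acid synthase, had the smallest ratio of these genes. It was at 1860, 1614, 2068 and 1643 CPM in naive IP and at 327, 392, 378 and 331 CPM in naive INPUT. After swimming it was at 1341, 2007, 1585 and 2499 CPM in IP and at 347, 418, 325 and 382 CPM in INPUT. The naive ratio was 5.02-fold (log2 2.33, SE 0.09, adjusted p = 8.7e-12). In all, 6 members, namely Srebf1, Apoe, Clu, Abca1, Scd1 and Scd2, had log2 ratios of 3.11 to 3.33 and so lay within the range of the astrocyte markers.

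**Figure D3:**
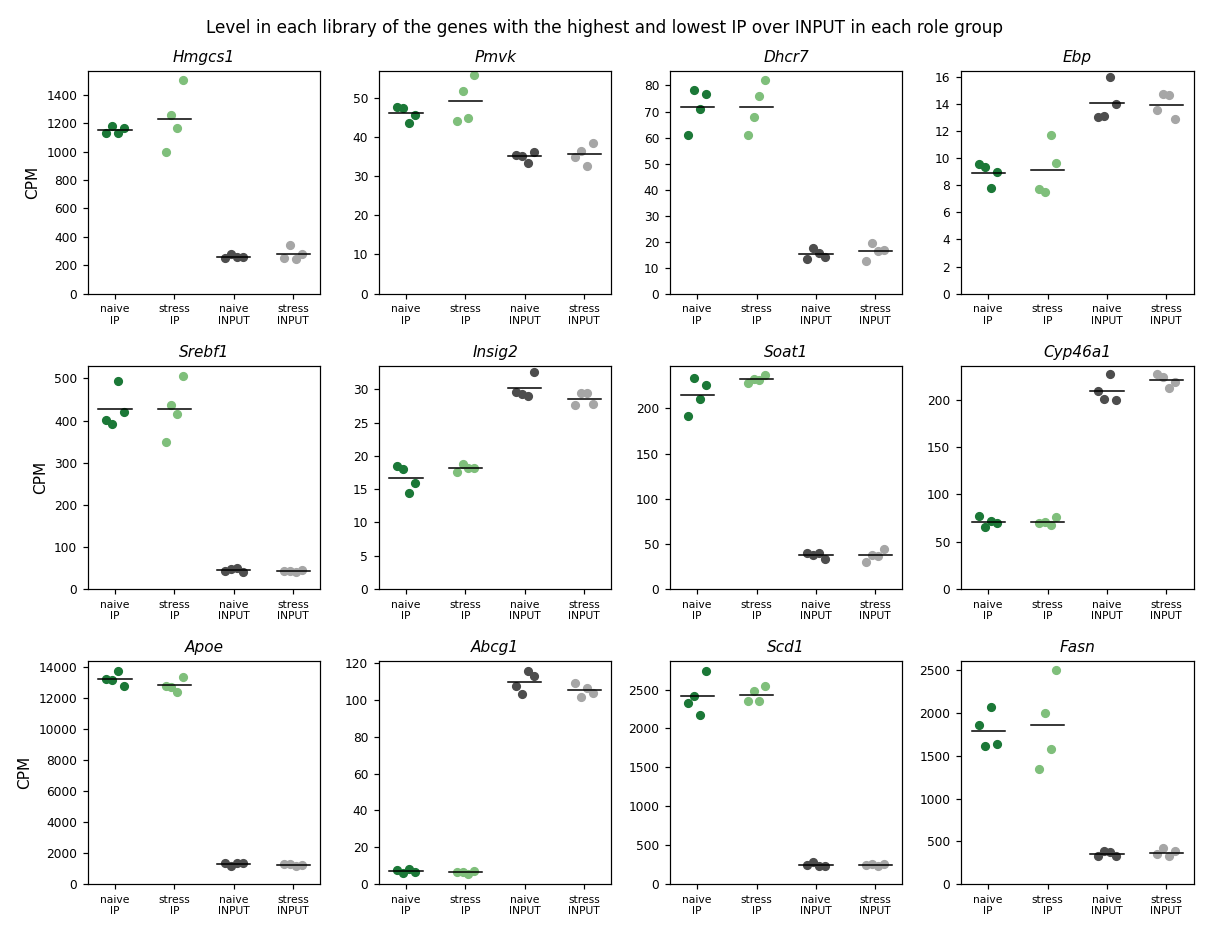
CPM in each of the 16 libraries for the 2 genes with the highest and lowest naive IP to INPUT ratio in each role group; points are libraries, lines are means of 4 and axes start at 0. Pmvk differs least between IP and INPUT, and Ebp, Insig2, Cyp46a1 and Abcg1 are lower in IP than in INPUT in every library.

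SREBP-2 is known to act on promoters through sterol regulatory elements, often beside CCAAT and GC boxes. Promoter windows of RefSeq (250 bases before to 50 after each start, GRCm38.p6) were searched on both strands. Windows were found for 27 of the 36 genes, and not for Fdps, Fdft1, Sqle, Stard4, Npc1, Clu, Abcg1, Scd1 and Scd2. An exact match to the sterol element letters TCACNCCAC was present in 1 of the 27, Hmgcs1. It was present in 1.41% of 10038 genes that were tested in naive mice and had a window. CCAAT was present in 22 of 27 members, or 81.5%, against 42.7% of those genes, and GGGCGG in 24 of 27, or 88.9%, against 69.5%. CACGTG, an E box, was present in 6 of 27, or 22.2%, against 11.7%. None of these motifs contains another. Matches are letters in a window and do not show that a factor binds there. Elements with other letters or outside the window were not searched for, so a missing match does not show that a gene lacks one. Stretches of 100 bases are printed for the genes with the highest or lowest ratio of their role group that have a single listed start, with TCACNCCAC, CCAAT and GGGCGG, in either direction, in capitals. They run from -100 to -1 relative to the start, except that of Hmgcs1, which runs from -177 to -78 and takes in its sterol element.
Hmgcs1, highest of its arm, chr13:119690174-119690273, plus strand, which holds the sterol element between an inverted CCAAT and an inverted GC box: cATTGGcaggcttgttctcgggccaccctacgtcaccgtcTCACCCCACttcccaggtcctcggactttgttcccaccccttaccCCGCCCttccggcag
Ebp, lowest of its arm, chrX:8193513-8193612, minus strand, with an inverted CCAAT and a GC box: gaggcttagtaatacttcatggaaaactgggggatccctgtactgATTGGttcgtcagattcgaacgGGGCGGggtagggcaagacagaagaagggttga
Soat1, highest of sterol handling, chr1:156474329-156474428, minus strand, with a CCAAT: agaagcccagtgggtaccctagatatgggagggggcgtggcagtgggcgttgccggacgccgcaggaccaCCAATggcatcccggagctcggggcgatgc
Cyp46a1, lowest of sterol handling, chr12:108334216-108334315, plus strand, with GC boxes only: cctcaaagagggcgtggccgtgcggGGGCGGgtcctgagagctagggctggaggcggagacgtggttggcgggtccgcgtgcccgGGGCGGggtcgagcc
Fasn, lowest of fatty acid synthesis, chr11:120824548-120824647, minus strand, with CCAAT in both directions: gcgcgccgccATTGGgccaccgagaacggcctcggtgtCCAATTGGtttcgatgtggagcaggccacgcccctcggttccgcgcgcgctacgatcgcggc
Hmgcs1 and Ebp held both CCAAT and GGGCGG in these stretches, Soat1 and Fasn CCAAT without GGGCGG, and Cyp46a1 GGGCGG without CCAAT. These differences depend on the cut. In the whole windows, Soat1 also held GGGCGG, at 30 relative to the start, and Cyp46a1 also held an inverted CCAAT, at -153.

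The second comparison asked whether 20 min of swimming changed the pathway in astrocyte ribosomes. In IP, none of the 36 genes passed the threshold, where 0.440% of 12501 genes did, and the lowest adjusted p was 0.54. At an unadjusted p under 0.05 there were 6 of 36, against 8.27% of all genes tested, and voom on the reads likewise gave 0 calls and 6 at that level. The 4 stress and 4 naive values overlapped at all 36 genes, whereas 5.00% of all genes had no overlap. The point estimate was above 0 at 24 of the 36 genes, against 48.9% of all genes, with a median log2 difference of 0.05 and a range of -0.17 to 0.32. The 95% confidence intervals lay within 0.5 log2 units either way at 33 of 36 genes, so changes beyond 1.41-fold were outside the interval for those, and the widest limits of any gene were -0.45 and 0.61.

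Of the 6 genes at an unadjusted p under 0.05 (limma), 4 were enzymes of the synthesis route, as were 18 of all 36 genes. Insig1 was at 200, 261, 216 and 252 CPM in naive IP and at 216, 290.5, 314 and 348 CPM in stress IP. Stress replicate 4 lay within the naive range and the other 3 above it, and the log2 difference was 0.32 (SE 0.13, unadjusted p = 0.034, adjusted p = 0.56, limma). Hsd17b7 was at 40.5, 40.6, 38.0 and 38.1 CPM in naive IP and at 35.1, 49.7, 59.9 and 53.2 CPM in stress IP. Here 3 stress libraries lay above all naive ones and replicate 4 below them, at a log2 difference of 0.30 (SE 0.13, adjusted p = 0.57). Msmo1 was at 343, 394, 356 and 355 CPM in naive IP and at 376, 447, 476 and 378 CPM in stress IP. Its log2 difference was 0.21 (SE 0.08, adjusted p = 0.54), and those of Cyp51 and Fdft1 were 0.17 and 0.16 with adjusted p = 0.54 and 0.55. The sixth gene, Srebf2, was on the other side of 0, at 252, 270, 285 and 278 CPM in naive IP and 221, 237, 239 and 275 CPM in stress IP, a log2 difference of -0.16 (SE 0.07, adjusted p = 0.57).

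**Figure D4:**
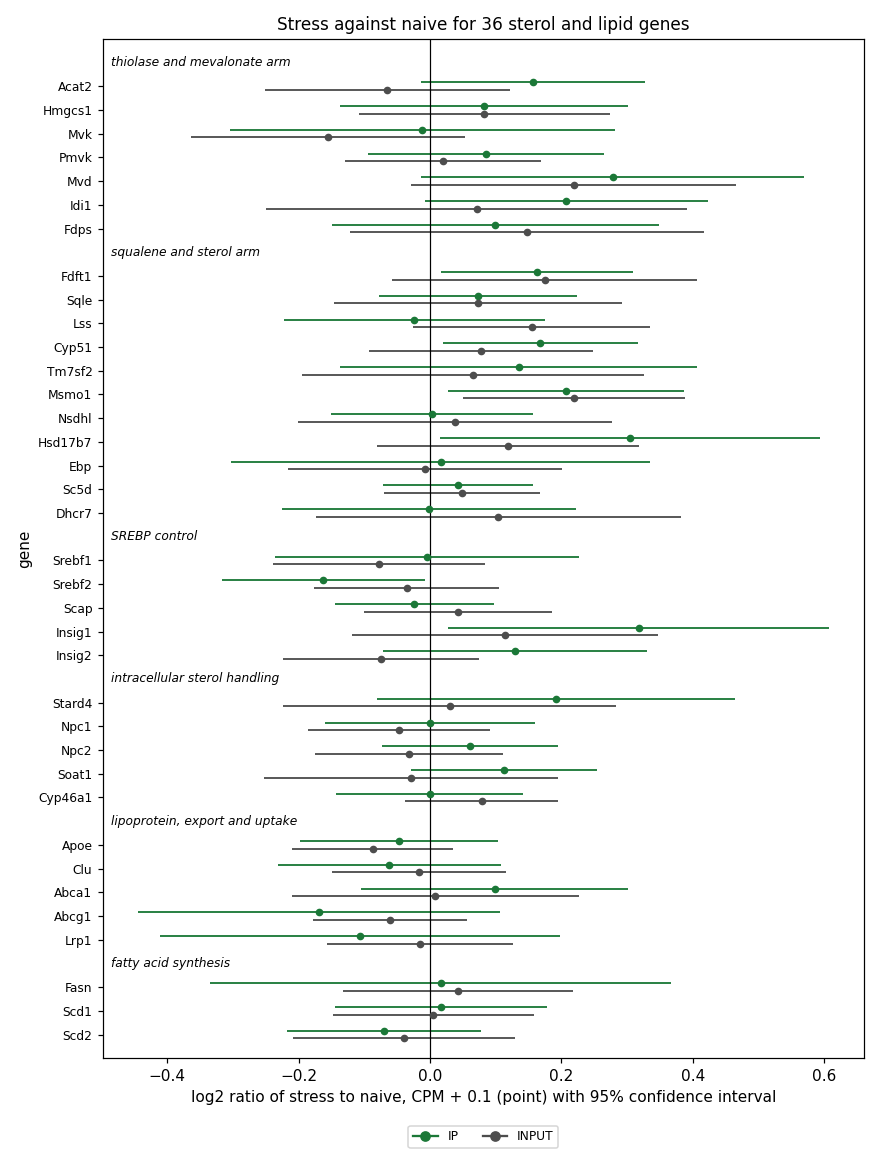
Log2 ratio of stress to naive for the 36 genes in IP (green) and INPUT (grey); points are limma estimates from 4 against 4 libraries and bars are 95% confidence intervals. No gene passed an adjusted p of 0.05, and estimates ran from -0.17 to 0.32 in IP and from -0.16 to 0.22 in INPUT.

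By role, the medians in IP were 0.10 for the thiolase and mevalonate arm, 0.07 for the squalene and sterol arm, -0.00 for SREBP control, 0.06 for sterol handling, -0.06 for lipoproteins, export and uptake, and 0.02 for fatty acid synthesis, beside -0.00 for all genes tested. The estimate was above 0 at 6 of 7 and 9 of 11 genes of the 2 synthesis arms. It was below 0 at 4 of 5 lipoprotein genes, with Abca1 the exception at 0.10. Apoe, Clu and Scd2 had narrow intervals, -0.20 to 0.10, -0.23 to 0.11 and -0.22 to 0.08.

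Nearly all synthesis enzymes lay on the same side of the mean of the 8 IP libraries in stress IP replicates 4, 5 and 15, but not in replicate 6. All 18 were below that mean in stress IP replicate 4, with a median deviation of -0.11 on the log2 scale. In replicate 15, 17 of 18 were above it, with a median of 0.20, and in replicate 5, 16 of 18, with 0.12. In replicate 6, 7 were above and 11 below, with -0.02. Naive IP libraries were below it at 15, 10, 16 and 13 of 18 enzymes, with medians of -0.10, -0.01, -0.08 and -0.04. Replicate 4 was thus close to naive replicates 2 and 11. The share of all genes on each side was not counted, so the pattern is not shown to be particular to the enzymes. From replicate 4 to 15, Lrp1 went from 3235 to 5018 CPM and the astrocyte marker Aldh1l1 from 848 to 1162 CPM. Over the same libraries the astrocyte markers Slc1a2 and Gja1 went from 75534 to 64625 and from 2196 to 1853 CPM. The summed enzymes ran from 2796 to 3604 CPM in stress IP and only from 2921 to 3093 CPM in naive IP. Without stress IP replicate 4 the median difference of the 36 genes was 0.11 and the lowest adjusted p 0.059, and without replicate 15 they were -0.00 and 0.13. Without replicate 5 no gene had an unadjusted p under 0.05. The 5 checked glucocorticoid and activity genes summed to 662 to 880 CPM in stress IP, and their highest Fkbp5 value, 71.8 CPM, was also in replicate 4. The part of that in the enzymes' spread was not tested. Of the markers, summed neuronal genes gave 334 to 492 CPM in stress IP beside 424 to 551 CPM in naive IP, with 0 of 6 past the threshold, and the astrocyte transcription factor Sox9 fell by 0.65 on the log2 scale (adjusted p = 0.0062, limma). Their part in the small differences of the 36 genes was not tested either.

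**Figure D5:**
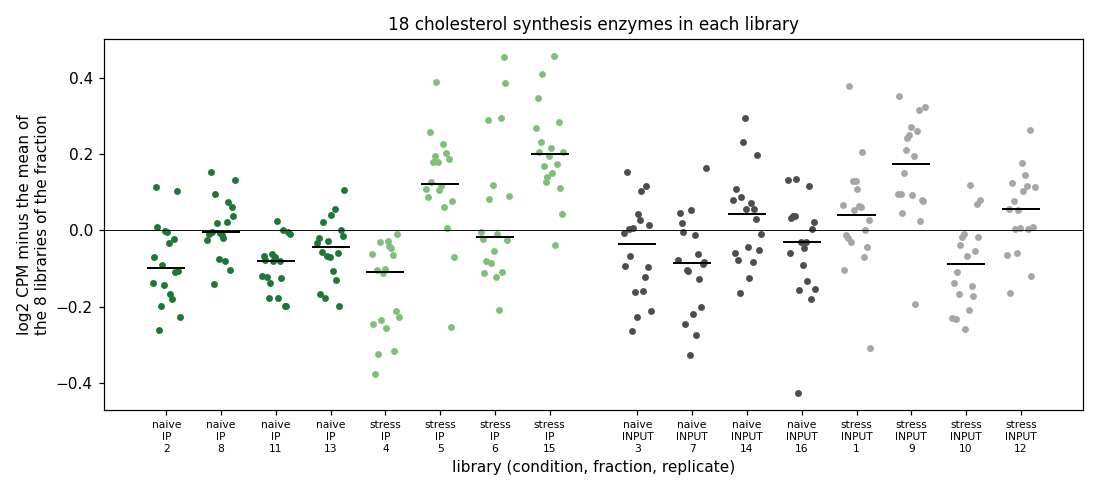
Log2 CPM of the 18 cholesterol synthesis enzymes in each library, minus the gene's mean over the 8 libraries of that fraction; points are genes and lines are medians. In stress IP the medians run from -0.11 in replicate 4 to 0.20 in replicate 15, and in stress INPUT from -0.09 in replicate 10 to 0.17 in replicate 9.

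In INPUT, which holds RNA of all cortical cells, none of the 36 genes passed the threshold with stress, where 0.0442% of 13577 genes did, and the lowest adjusted p was 0.83. At an unadjusted p under 0.05 there was 1 of 36, against 5.03% of all genes, by limma and by voom alike. No gene was free of overlap, against 2.87%, and 22 of 36 estimates were above 0, against 48.8%. All 36 intervals lay within 0.5 log2 units. The gene nearest to a change was Msmo1, at 73.8, 79.0, 77.8 and 75.2 CPM in naive INPUT and 95.04, 98.8, 74.6 and 89.4 CPM in stress INPUT. Stress replicate 10 lay among the naive values and the other 3 above them, at a log2 difference of 0.22 (SE 0.08, unadjusted p = 0.015, adjusted p = 0.83, limma). Mvd was next, with 0.22 (SE 0.11, adjusted p = 0.99). Of the enzymes, 17 of 18 were above the INPUT mean in stress replicate 9 and 15 of 18 below it in replicate 10. In the naive INPUT libraries 10, 14, 8 and 10 of 18 were below it. The share of all genes on each side was not counted here either.

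The difference between the stress effects in IP and INPUT was tested as an interaction over all 16 libraries. None of the 36 genes passed the threshold, where 0.0225% of 13341 genes did, and none had an unadjusted p under 0.05, by limma or by voom. Estimates ran from -0.18 for Lss to 0.22 for Acat2, with a 95% confidence interval of -0.02 to 0.47 for Acat2. For Insig2 the estimate was 0.20, with an interval of -0.03 to 0.44. The widest limits of any gene were -0.47 and 0.60. The ratio of IP to INPUT was therefore not shown to differ between naive and stressed mice for any of these genes at this number of libraries.

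The other 41 genes of the pathway were listed as SREBP processing and fatty acid partners, sterol sensing and oxysterol genes, lipoprotein receptors and particles, and lysosomal and membrane sterol transfer. In naive mice 39 were tested, and 14 were higher and 19 lower in IP, with a median log2 ratio of -0.19. Of all genes tested, 23.7% were higher and 64.0% lower, with a median of -0.64. Of the 11 SREBP and fatty acid partners, 7 were higher and 4 lower, and of the 9 tested genes of sterol sensing, 4 were higher and 4 lower. Of the 12 lipoprotein genes, 2 were higher and 6 lower, and of the 7 tested genes of sterol transfer, 1 was higher and 5 lower. Ch25h and Gramd1c were below the filter of 1 CPM on average. The 3 highest ratios were those of Lcat, the enzyme that esterifies cholesterol on lipoproteins, at 3.21, and of the fatty acid desaturases Fads2 at 3.13 and Fads1 at 3.11. The 3 lowest were those of Lpl, lipoprotein lipase, at -3.11, the oxysterol hydroxylase Cyp39a1 at -2.27, and Apod, an apolipoprotein of the lipocalin family, at -1.75. With stress, none of the 38 tested in IP and none of the 39 tested in INPUT passed the threshold by limma, where 0.440% and 0.0442% of all genes did. At an unadjusted p under 0.05 there were 4 and 0, against 8.27% and 5.03% of all genes.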

How the data were processed

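RNA libraries were TruSeq with ribosomal depletion, sequenced on a HiSeq. The authors aligned reads with STAR to mm10, counted uniquely mapped fragments on RefSeq genes with HTSeq, and deposited log2 CPM of 24060 genes per library, each scaled to its own total with a small added constant, without gene length. The tools edgeR and limma are named in the submitters' processing notes. Strand use in counting is not given in the sources used here. The methods put experiments 2 weeks after tamoxifen, and the labels 1 month.

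The constant was removed, and 100% of values up to 1000 reads came out as whole reads (tolerance 0.1), which gave library totals. Comparisons used limma 3.58.1 in R 4.3.3 (lmFit, eBayes with variance trend) on log2(CPM + 0.1), so that fold changes of low genes are slightly understated, keeping genes that averaged over 1 CPM (8 libraries per comparison, 16 for the interaction), with Benjamini-Hochberg adjustment over all genes tested and a threshold of 0.05. The fit was tested on simulated data. Ratios of related genes were chosen after the data were seen and are given with no test. Exon lengths, coordinates and overlaps came from GENCODE M21 (GRCm38). Alternatives were a pseudocount of 1 or 0.01 CPM, other filters, median ratio scaling, voom on recovered reads, array weights, no variance trend, 1 model for all 16 libraries, Xist as covariate for sex, and leaving out each library. All 36 members are named. Values in every library are given for the genes with the highest and lowest naive ratio in each role group and, chosen after their values were seen, for genes nearest to a change with stress. Of other pathway genes, the 3 highest and 3 lowest ratios are named. The members and lists were chosen with earlier results of these data known. Intervals come from the spread between libraries, and 3 reads correspond to at most 0.183 CPM. Tables and figures were made with pandas 2.3.3 and matplotlib 3.10.9 under Python 3.11.15.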

Additional observations from a re-analysis of the deposited data

Results flagged for a closer look

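Within each group of 4 libraries, the CPM of each member was checked for a library far from the other 3 by Dixon's criterion. Of 144 groups, 5 passed, where chance passes about 1 in 20, or 7.2. Clu, the apolipoprotein clusterin, reached 7970 CPM in naive IP replicate 11, against 6834 to 6974 CPM elsewhere in its group. That is the library whose Fkbp5 also stood apart, and its part in the Clu value was not tested. Apoe was at 1191 CPM in naive INPUT replicate 7, below 1348 to 1370 CPM in the others. Abcg1 was at 5.57 CPM in stress IP replicate 6, below 6.65 to 6.83 CPM. In stress INPUT replicate 9, Idi1 was at 4.40 CPM against 3.70 to 3.81 CPM and Srebf2 at 152 CPM against 132 to 135 CPM.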

How the results depend on the processing

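No member passed the threshold for stress in IP, in INPUT or for their difference under any alternative run, with lowest adjusted p-values of 0.059 (IP, without stress IP replicate 4), 0.19 (INPUT, without naive INPUT replicate 14) and 0.63 (difference, without stress IP replicate 15). Estimates near 0 did not keep their sign: leaving out single libraries turned it for 13 of 36 genes in IP, 18 in INPUT and 16 for the difference, and the other settings for 7, 3 and 8. For IP over INPUT, 31 genes higher and 4 lower held under every setting except median ratio scaling, which gave 32 and 3 in naive and 32 and 2 in stressed mice. There Ebp had log2 ratios of -0.01 (adjusted p = 0.91) and 0.0004 (1.0), Insig2 in stressed mice -0.02 (0.82), and Scap 0.71 (7.9e-08) and 0.63 (2.6e-06), since this setting moves every ratio up by about the median of all genes. In stressed mice Scap ran from -0.0373 to 0.0433 when single libraries were left out. Leaving out naive IP replicate 11 and naive INPUT replicate 14 together, chosen after seeing the data, changed no member's call, but raised the calls for the difference over all genes from 3 to 20. Over all genes, calls in stress IP were 55, with 143 under array weights, 124 in 1 model of 16 libraries, 19 without variance trend and 17 to 122 when single libraries were left out (122 without naive replicate 11, and also above 55 without stress replicate 15). In stress INPUT they were 6, with 50, 2 and 0 (727 at an unadjusted p under 0.05) and 1 to 32 (32 without naive replicate 14). For the difference they were 3, with 19 under array weights and 28 without naive IP replicate 11. The median level of the members per length in naive IP was 27.5 CPM per kb, 35.7 with the longest transcript as length and 35.6 with median ratio scaling, and the first 7 genes in the order were the same, although with the longest transcript Msmo1 passed Cyp51. Members with any of 3 motifs were 26, also with CACGTG added. No paired analysis was possible because the groups share no replicate numbers. The lowest count was 56 reads, and the part of depth in the spread of the lowest genes was not tested. With 4 libraries a group, stress effects are limited to the intervals given.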
